A study of Mus musculus with 6 samples.

Results

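The 10 genes described here are typical of the absorptive cells of the colon epithelium and were measured in RNA from sorted mouse leukemia cells. They were Krt20, Car1, Car4, Slc26a3, Aqp8, Guca2a, Lgals4, Cdh17, Vil1 and Krt8, found by symbol, and all 10 were present among the 23284 genes of the deposited values. They were chosen by their FPKM in these same libraries, so the levels are given as a description. Values of a gene are given in the order cytarabine 1, 2 and 3, then control 1, 2 and 3. The RNA came from C1498 cells, a C57BL/6 mouse acute myeloid leukemia (AML) line that carried EGFP and had been grown from 1 clone, injected intravenously into wild-type C57BL/6J mice (females unless stated otherwise). Cells positive for GFP and for CD49b were sorted from femur, tibia and pelvis marrow on day 21. There were 3 cytarabine-treated mice and 3 control mice, which the sample labels call both PBS and nontreat, with 1 library from every mouse (cytarabine 1 to 3 and control 1 to 3). Cytarabine is a nucleoside analog that blocks DNA synthesis. The dose given to these mice is not stated in the labels.

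Absorptive colonocytes take up salt and water from the gut lumen. Chloride enters in exchange for bicarbonate, carbonic anhydrases supply the bicarbonate and protons for that exchange, and water follows through aquaporins. Their luminal face carries a brush border of actin bundles, and keratin filaments brace the cell body. Blood cells and leukemia cells are not known for these programs, although Car1 is also a well-known enzyme of red blood cells.

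The values were FPKM, read counts divided by transcript length and by library size, which allow levels of different genes to be set side by side. From the steps between low values, the effective depth behind them was 11420000 to 18620000 reads per library, so that 3 reads of a 2000-base transcript give 0.0895 to 0.146 FPKM. Several lymphoid genes that C1498 cells express were high in every library, while Il2rb and Gzmb were at 2.71 FPKM or less. Ptprc, the leukocyte antigen CD45, was at 284 to 386 FPKM and Cd3g, a T cell receptor chain, at 449 to 652 FPKM. Itga2, which encodes the CD49b antigen used for the sort, was at 7.79 to 13.3 FPKM. The libraries stood apart from each other within both groups for the colon genes, as the next values show, so the group labels alone do not describe them.

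The sum of the 10 genes was 154 FPKM in cytarabine 1, 1926 FPKM in cytarabine 2, 1967 FPKM in cytarabine 3, 860 FPKM in control 1, 15.1 FPKM in control 2 and 14.6 FPKM in control 3. Their share of all FPKM in a library ran from 0.00223% in control 3 to 0.316% in cytarabine 3. Cytarabine 2, cytarabine 3 and control 1 were therefore high, cytarabine 1 was intermediate, and control 2 and control 3 were low, so the range of each group overlapped that of the other. The median gene of the 10 was at the 96.6th and 97.0th percentile of all genes in cytarabine 2 and 3, at the 90.7th in control 1, at the 67.3rd in cytarabine 1, and at the 51.6th and 50.7th in control 2 and 3. All 10 were at 1 FPKM or more in the first 4 of these libraries, and 4 of 10 were in each of control 2 and control 3. The middle ranks in control 2 and 3 stand for low levels, with a median of 0.788 and 0.324 FPKM over the 10 genes. Only 15665 and 14569 of the 23284 genes were above 0 there.

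**Figure D1:**
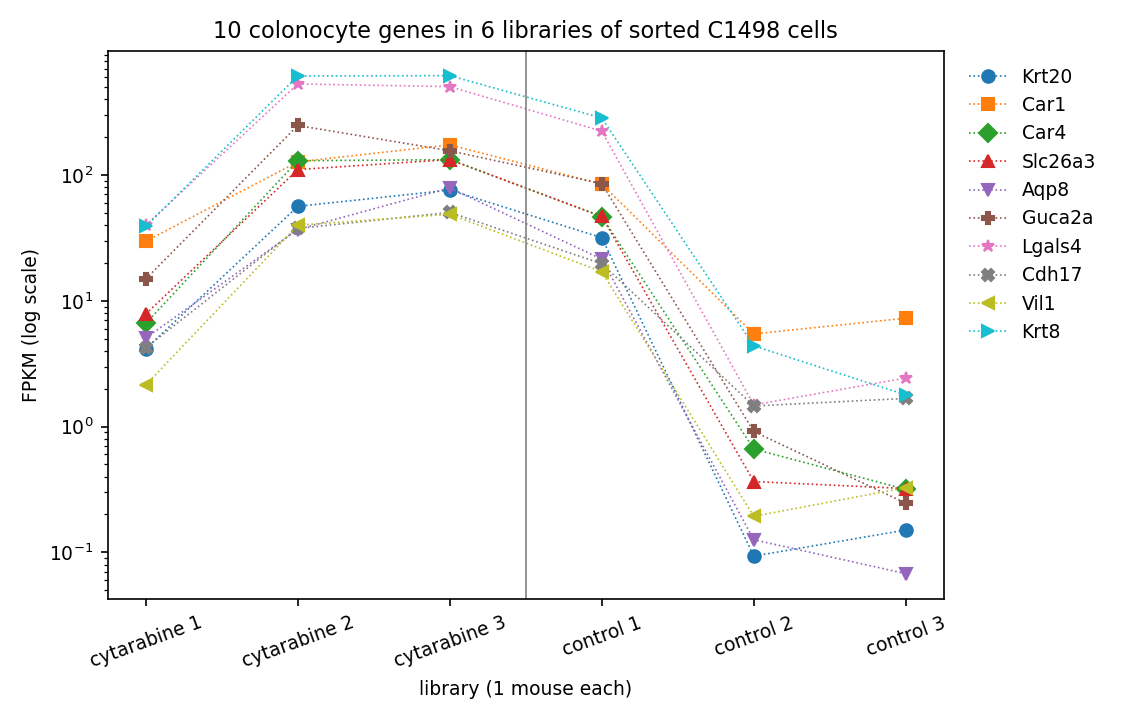
FPKM (log scale) of each of the 10 colonocyte genes in the 6 libraries, cytarabine left of the grey line and control right of it, with a dotted line joining the values of a gene. The lines follow a similar course from cytarabine 1 to control 1, with Car1 rising least from cytarabine 1 to 2. Aqp8 rises and Guca2a falls from cytarabine 2 to 3. The lines spread apart in control 2 and control 3, where Car1 lies highest.

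Slc26a3 encodes the apical exchanger that takes up chloride for bicarbonate, and lies on chromosome 12 from 31390871 to 31473917 of GRCm38, on the plus strand. It reached 7.85, 110.4 and 133 FPKM in treated mice, against 46.8, 0.365 and 0.321 FPKM in control mice. Cytarabine 1 lay far below cytarabine 2 and 3, and control 1 lay between them. The gene overlaps the pseudogene Gm9359.

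Car1 and Car4 encode carbonic anhydrases, Car1 in the cytosol and Car4 held on the cell surface. Car4, on chromosome 11 from 84957786 to 84966044, plus strand, had FPKM of 6.61, 129.7 and 132 under cytarabine, against 46.6, 0.662 and 0.317 for the controls. It lay close to Slc26a3 in most libraries, but in control 2 it was at 0.662 FPKM against 0.365 FPKM. The log2 ratio of the pair, on the scale log2(FPKM + 1), had an SD of 0.18 over the 6 libraries, the smallest of the 45 pairs. The added 1 flattens differences between values under 1 FPKM. Without it, over cytarabine 1 to 3 and control 1, the SD was 0.20, above the 0.13 of Car4 and Vil1. Car1, on chromosome 3 from 14766216 to 14808368, minus strand and overlapping the pseudogene Gm16399, measured 29.8, 127 and 174 FPKM after cytarabine and 84.5, 5.45 and 7.27 FPKM without it. It was the highest of the 10 genes in control 2 and control 3, where it made up 36.0% and 49.8% of their sum, against 6.60% and 8.82% in cytarabine 2 and 3. In cytarabine 1 it held 19.4%.

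Genes of red blood cells were therefore read beside Car1. Alas2, which makes heme in erythroid cells, reached 4.76, 0.884 and 0.345 FPKM in treated mice, against 0.869, 1.02 and 1.20 FPKM in control mice. Slc4a1, the anion exchanger of the red cell membrane, had FPKM of 3.50, 0.0848 and 0.154 under cytarabine, against 1.61, 1.76 and 1.57 for the controls. The hemoglobin gene Hba-a1 differed from this, at 95.3, 12.6 and 17.6 FPKM with cytarabine and 16.3, 23.8 and 13.8 FPKM in controls. The 9 erythroid genes summed to 317, 41.8 and 50.6 FPKM in cytarabine 1, 2 and 3 and to 42.7, 73.0 and 39.2 FPKM in control 1, 2 and 3. Their sum was thus highest in cytarabine 1 and lowest in control 3, whereas Car1 was higher in control 3, at 7.27 FPKM, than in control 2, at 5.45 FPKM. The part of erythroid genes in the Car1 level was not tested. The paralog Car2, an enzyme of colon and red cells alike, measured 26.7, 152 and 144 FPKM after cytarabine and 57.9, 9.30 and 6.07 FPKM without it, and like Car1 it stayed above most colon genes of its list in control 2 and 3.

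Aqp8 encodes a water channel and lies on chromosome 7 from 123462291 to 123468004, plus strand. It reached 5.06, 36.8 and 78.8 FPKM in treated mice, against 21.4, 0.126 and 0.0677 FPKM in control mice. The values of control 2 and 3 lie below the level of 3 reads of a 2000-base transcript, 0.135 and 0.146 FPKM in these libraries. Of the 10 genes it differed most between the pair of high cytarabine libraries in that direction, with 2.14 times as much in cytarabine 3 as in cytarabine 2.

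Guca2a encodes the precursor of guanylin, a peptide hormone that acts on the receptor guanylate cyclase C and so controls salt and fluid secretion into the gut. It lies on chromosome 4 from 119637704 to 119639471, plus strand, and had FPKM of 14.9, 247 and 156 under cytarabine, against 85.2, 0.914 and 0.246 for the controls. It went against Aqp8 in the high cytarabine libraries, with 0.629 times as much in cytarabine 3 as in cytarabine 2. The 250 bases before its RefSeq start, at chr4:119637482-119637731 of GRCm38.p6, plus strand, are shown because, of the 8 such promoter windows found for the 10 genes (Car1 and Cdh17 were not matched), only this one has 2 matches to the GATA sequence AGATAA. Capitals mark them, as the other strand reads them.
Guca2a: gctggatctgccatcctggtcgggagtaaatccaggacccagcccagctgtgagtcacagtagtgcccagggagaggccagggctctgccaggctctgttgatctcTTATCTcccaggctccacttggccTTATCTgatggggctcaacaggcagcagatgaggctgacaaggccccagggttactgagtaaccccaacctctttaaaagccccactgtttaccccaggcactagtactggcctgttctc
Matches to AGATAA on either strand were common, in 9.99% of 32851 RefSeq windows of the same length, and 3 of the 8 windows had one (Guca2a, Krt20 and Krt8). Gata6, a factor of gut epithelium and also of heart, measured 0.127, 1.66 and 2.55 FPKM after cytarabine and 2.95, 0.458 and 0.0579 FPKM without it, and was thus highest in control 1, as the heart genes were. Unlike the summed heart genes, Gata6 was higher in cytarabine 2 than in control 2. Other sequences searched on both strands were CAAAGTCC of HNF4, in none of the 8 windows and 1.20% of all, TTTATNG of the CDX factors, in 1 and 9.81%, and CCACNCCC of the KLF factors, in 2 and 15.9%. The CDX match, in the Krt20 window, overlaps a TATAAA run. A match is a feature of the letters, and binding was not measured.

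The partners of Guca2a at the receptor were divided between libraries in the same way. Gucy2c, which encodes guanylate cyclase C, reached 1.04, 11.9 and 14.8 FPKM in treated mice, against 5.66, 0.0220 and 0.0709 FPKM in control mice. Guca2b, the related hormone uroguanylin, had FPKM of 0.776, 6.85 and 7.61 under cytarabine, against 1.78, 0.205 and 0 for the controls. Ligand and receptor transcripts were thus both high in cytarabine 2 and 3, with the ligand Guca2a far above its receptor.

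Lgals4, Cdh17 and Vil1 serve the luminal membrane and adhesion. Lgals4 encodes galectin-4, a lectin that gathers glycoproteins at the apical membrane, and lies on chromosome 7 from 28833854 to 28841708, plus strand. It measured 39.9, 529 and 504 FPKM after cytarabine and 223, 1.49 and 2.43 FPKM without it, a ratio of 356 between the highest and the lowest library. Vil1 encodes villin, which bundles actin in microvilli, and lies on chromosome 1 from 74409376 to 74435559, plus strand. It reached 2.14, 39.9 and 48.7 FPKM in treated mice, against 17.0, 0.193 and 0.327 FPKM in control mice. The gene overlaps Usp37 on the opposite strand. The library kit was stranded, but whether strand was used in counting is not stated, so reads of the overlap cannot be told apart.

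Cdh17 encodes LI-cadherin, an adhesion protein of the intestine, and lies on chromosome 4 from 11758147 to 11817895, plus strand. It had FPKM of 4.23, 37.5 and 50.4 under cytarabine, against 19.7, 1.46 and 1.67 for the controls. Its fall-off toward control 2 and 3 was shallow, with a ratio of 34.6 between the highest and the lowest library, close to the 31.8 of Car1. Within the sum of the 10 genes it went from 1.95% in cytarabine 2 to 9.63% and 11.5% in control 2 and 3.

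Krt20 and Krt8 encode keratins, Krt20 of mature surface cells and Krt8 of simple epithelia in general. Krt20, on chromosome 11 from 99428403 to 99438150, minus strand, measured 4.15, 56.3 and 75.8 FPKM after cytarabine and 31.7, 0.0934 and 0.151 FPKM without it. The last pair of values corresponds to only 1.99 and 2.97 reads as inferred, so no ratio is given against them. Krt8, on chromosome 15 from 101996698 to 102004482, minus strand, overlapping the antisense lincRNA Gm36026, reached 39.0, 612 and 616 FPKM in treated mice, against 284, 4.38 and 1.79 FPKM in control mice, which is 95.0 and 35.9 inferred reads in control 2 and 3. It was the highest of the 10 genes in cytarabine 2, cytarabine 3 and control 1, with 31.8%, 31.3% and 33.0% of their sum.

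Krt8 pairs with the type I keratins Krt18 and Krt19 in filaments. Krt19 had FPKM of 35.5, 499 and 480.5 under cytarabine, against 232, 4.62 and 2.00 for the controls, close to Krt8 in each library. Krt18 measured 5.87, 73.0 and 83.7 FPKM after cytarabine and 38.9, 2.63 and 0.145 FPKM without it. The keratins that were higher in control 2 than in control 3 thus included Krt8, Krt18 and Krt19. The squamous keratin Krt14 was also highest in control 2, at 7.58 FPKM, against 0.205 to 0.893 FPKM in the other libraries, and its part in the Krt8 level was not tested.

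Across the 6 libraries the genes kept a common order. Cytarabine 3, cytarabine 2, control 1 and cytarabine 1 were the first 4 libraries, in this order, for 8 of the 10 genes. The exceptions were Guca2a and Lgals4, with cytarabine 2 above cytarabine 3. Control 2 was above control 3 for 5 of the 10, so these neighbours have no common order. Cytarabine 2 was above control 1 by a median of 2.25 times over the 10 genes, from 1.503 for Car1 to 2.90 for Guca2a. Control 1 was above cytarabine 1 by a median of 5.84 times, from 2.84 for Car1 to 7.94 for Vil1. Cytarabine 3 and 2 lay close together, with a median ratio of 1.21 and a range from 0.629 to 2.14.

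**Figure D2:**
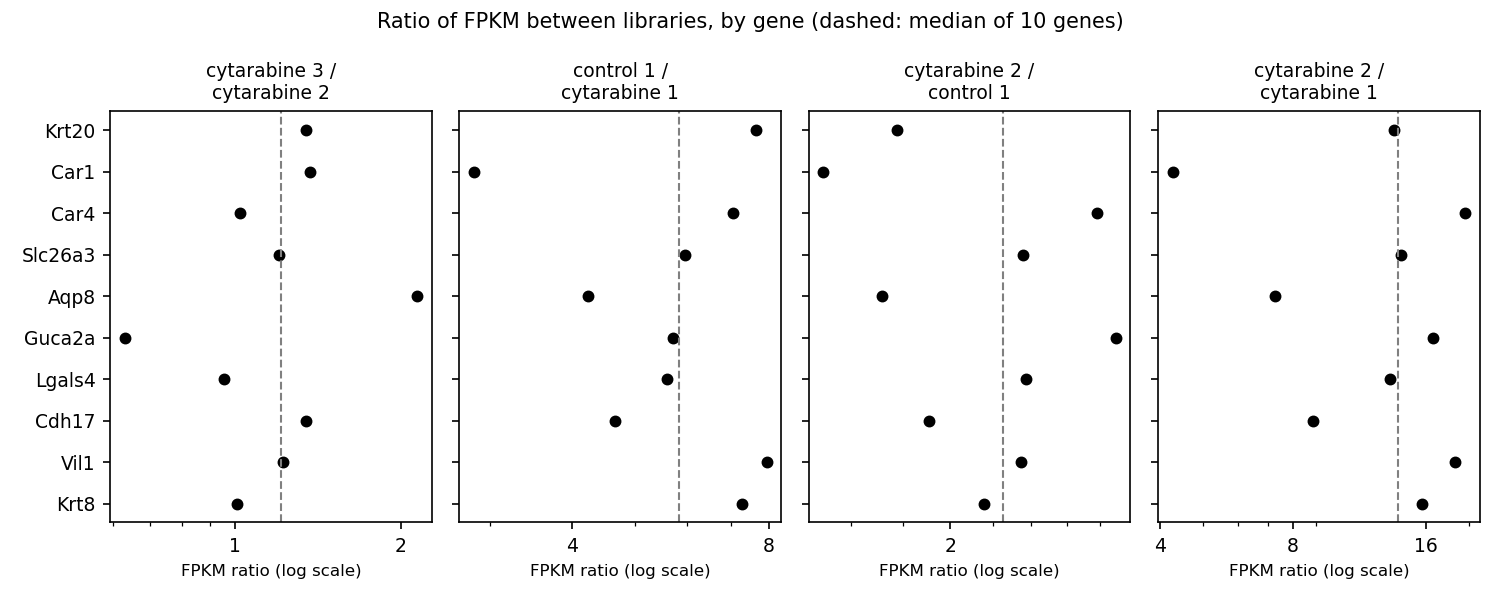
FPKM ratio (log scale) between pairs of libraries for each of the 10 genes, with the median of the genes dashed, 1 panel for each pair. Car1 lies lowest in the 3 panels other than cytarabine 3 over cytarabine 2, and in that panel Aqp8, at 2.14, and Guca2a, at 0.629, lie farthest apart.

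The ratios between genes were steadier than the levels. In the 4 libraries where every gene was at 1 FPKM or more, the SD of a gene's log2 FPKM had a median of 1.82 over the 10 genes. The SD of the log2 ratio between 2 of the genes had a median of 0.40 over the 45 pairs, from 0.13 for Car4 and Vil1 to 0.97 for Car1 and Vil1. Over the 36 pairs without Car1 the median was 0.30, and over the 9 pairs with Car1 it was 0.80. Over all 6 libraries, on the scale log2(FPKM + 1), the median pair SD was 0.70, against a median SD of 2.91 for the levels. The genes were chosen for varying together, so these figures describe them and no test is attached.

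Genes with the nearest profile were looked for among 11693 other genes averaging 1 FPKM or more, by the root mean square difference from the median centred profile of the 10 genes over the 6 libraries. The 10 nearest, at 0.14 to 0.22 on the log2 scale, were 2610528A11Rik, Ckmt1, Cyp2c55, Agr2, Dmbt1, Cldn7, Ms4a8a, Slc6a14, Reg4 and Gm5485, against a median of 2.63 for all of them. Agr2 is a disulfide isomerase of mucus-secreting cells, Cldn7 a tight junction claudin, Reg4 a secreted lectin of gut epithelium and Slc6a14 an amino acid transporter. Cyp2c55, a cytochrome P450, reached 6.92, 90.4 and 95.9 FPKM in treated mice, against 33.1, 0.135 and 0.146 FPKM in control mice. Among the 10 colonocyte genes the distance ran from 0.15 for Krt20 to 0.78 for Car1 and 0.89 for Cdh17, and 89 and 108 other genes were nearer than Car1 and Cdh17.

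A further 24 genes of colonocytes were read from a list of 26, with no filter on their level. Of the 24, 17 had cytarabine 2, cytarabine 3 and control 1 above cytarabine 1, and cytarabine 1 above control 2 and 3, as did 1394 of all 23284 genes (5.99%). This library pattern sets no order among cytarabine 2, cytarabine 3 and control 1, and the counts of the lists below use it too. The lists were chosen with the levels known, so these counts are a description. Of the 7 others, Dhrs9 was present in all libraries at 1.42 to 3.32 FPKM, and Slc9a3, Scnn1g, Slc51a, Slc51b, Tmigd1 and Clca4b were listed at 0 in cytarabine 1. Muc13, a membrane mucin, had FPKM of 14.2, 245 and 292 under cytarabine, against 107, 0.670 and 1.28 for the controls. Ceacam1, an adhesion molecule, measured 7.41, 133 and 163 FPKM after cytarabine and 56.2, 1.23 and 1.42 FPKM without it. Plac8 had a much higher floor, at 64.2 and 40.7 FPKM in control 2 and 3 and up to 350.1 FPKM in cytarabine 3. Slc9a3, the sodium-proton exchanger that works beside Slc26a3, was low throughout, at 0.306 FPKM or less in every library.

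Of 13 brush border genes, which include partners of villin, 12 had this library pattern. Cdhr5, a microvillar cadherin, reached 2.62, 35.4 and 40.3 FPKM in treated mice, against 15.1, 0.208 and 0.0714 FPKM in control mice. The exception was Ezr, the membrane linker ezrin, at 155.6 to 201.7 FPKM in all libraries. Of 17 junction and epithelial genes 16 had it, the exception being Cldn4. Epcam, the epithelial adhesion molecule, had FPKM of 14.0, 176 and 209 under cytarabine, against 81.3, 0.954 and 0.140 for the controls. Among transcription factors of the gut, 7 of 11 had it, with Cdx2, Gata4, Gata6 and Isx as exceptions. Hnf4a, a factor of enterocytes, measured 1.69, 26.7 and 31.8 FPKM after cytarabine and 12.3, 0.116 and 0.0625 FPKM without it.

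Further lists covered regions and cell types of the gut, and other organs. Of 17 small intestine genes 11 were under 1 FPKM in every library, among them Alpi, the alkaline phosphatase of the small bowel, which was listed at 0 in 5 libraries, while Rbp2 reached 10.6 FPKM and Slc5a1 8.80 FPKM in cytarabine 3. Of the 17, 4 had the library pattern (23.5%), Rbp2 and Slc5a1 among them, against 5.99% of all genes. The 7 stomach genes, the 4 kidney genes and the 4 lung genes were under 1 FPKM in every library, and 5 liver genes summed to 2.45 to 19.8 FPKM. Goblet cell genes, by contrast, summed to 227, 3160 and 3475 FPKM with cytarabine and to 1555, 15.7 and 14.9 FPKM in controls, and 7 of the 8 had the library pattern. The other, Retnlb, was above 0 only in control 1. The peptide hormone Pyy of enteroendocrine cells was at 4.44, 95.9 and 116.3 FPKM with cytarabine, at 34.6 FPKM in control 1 and listed at 0 in control 2 and 3. The crypt stem cell marker Lgr5 was at 0.0192 to 0.351 FPKM, and the tuft cell gene Trpm5 at 0.0714 FPKM or less. Other genes of these lists were present in all libraries, such as the crypt gene Rnf43 at 12.6 to 17.1 FPKM and the tuft gene Avil at 14.6 to 30.7 FPKM. Absorptive, mucous and hormone cell transcripts of the colon were thus high in the same libraries.

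Of 10 smooth muscle genes 7 had the library pattern, the exceptions being Des, Acta2 and Tagln, and of 8 heart genes 0 had it. Control 1 held 0.445 times the FPKM of cytarabine 2 for the median colonocyte gene and 0.653 times for the median of 10 smooth muscle genes, from 0.439 for Mylk to 1.41 for Des. The range of the colonocyte genes, from 0.345 for Guca2a to 0.665 for Car1, overlaps it, and the difference was not tested. Cytarabine 1 held 0.0725 and 0.0808 times, respectively. The summed heart genes were highest in control 1, with 7.998, 22.6 and 791 FPKM with cytarabine and 3026, 626 and 60.6 FPKM in controls. The low sums of cytarabine 1 and 2 have no common order by gene, since Nppa was at 2.08 and 1.27 FPKM and Tnnt2 at 0.759 and 9.18 FPKM there. Cytarabine 2 was thus high in colonocyte genes and low in heart genes.

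**Figure D3:**
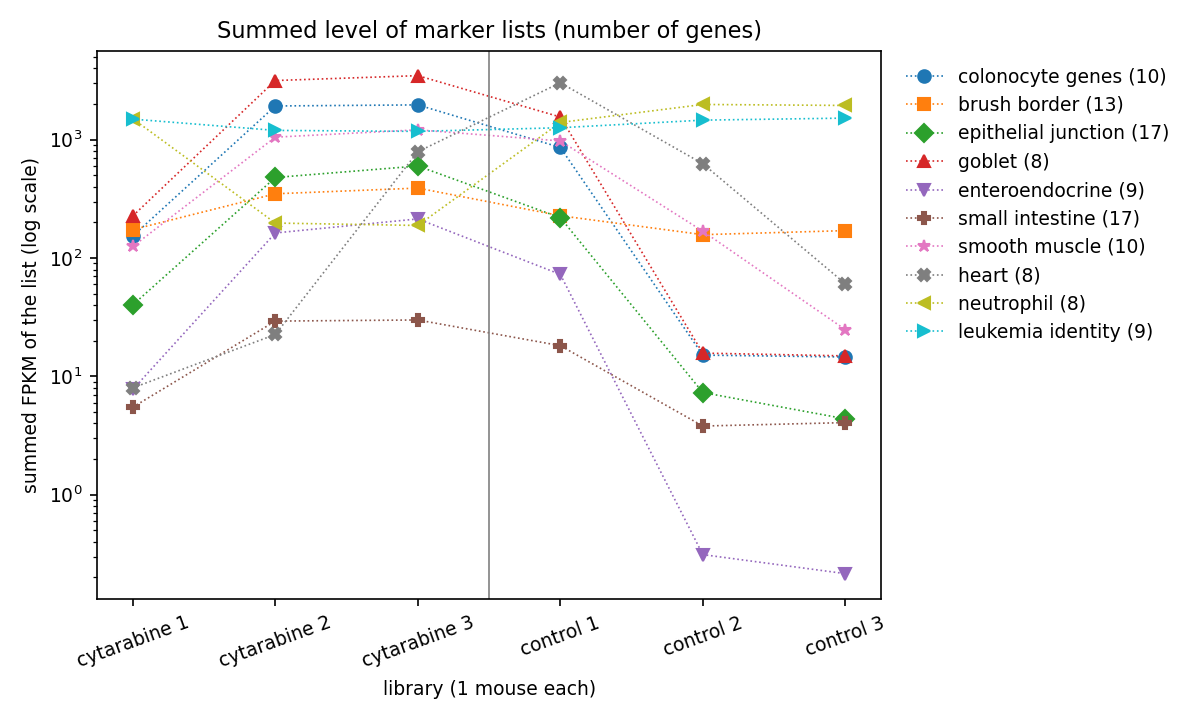
Summed FPKM (log scale) of the 10 colonocyte genes and of 9 other lists in the 6 libraries, cytarabine left of the grey line, with the number of genes of each list in the legend. The colonocyte, goblet, junction and enteroendocrine sums are high in cytarabine 2, cytarabine 3 and control 1, the heart sum peaks in control 1 at 3026 FPKM, and the neutrophil sum is lowest in cytarabine 2 and 3.

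Blood cell transcripts were read against the same libraries. The 8 neutrophil genes summed to 1502, 197 and 188 FPKM in cytarabine 1, 2 and 3 and to 1398, 1984 and 1946 FPKM in control 1, 2 and 3, so that the pair of libraries lowest in neutrophil genes was the pair highest in colonocyte genes. Control 1 was high in both, and the part of this in the colonocyte levels was not tested. The 9 genes of C1498 identity summed to 1491, 1197 and 1175 FPKM with cytarabine and to 1261, 1462 and 1521 FPKM in controls, a narrow range with the lowest values in cytarabine 2 and 3. This holds for the sum and not for each gene. Klrd1 was at 139, 115 and 117 FPKM with cytarabine and 94.5, 89.5 and 86.6 FPKM in controls. Il2rb was at 2.66, 2.01 and 1.56 against 0.281, 0.420 and 0.382 FPKM. Itga2 went the other way, at 8.11, 7.79 and 7.88 against 10.6, 13.3 and 12.8 FPKM. FPKM are shares of a library. In bulk RNA, fewer cells of a type and less RNA per cell cannot be told apart.

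Cytarabine and control libraries were then compared, which is the contrast of the study's design. limma was fitted to log2(FPKM + 1) of the 11703 genes averaging 1 FPKM or more, and all 10 colonocyte genes were among them. Krt8 had a mean of 422 ± 332 FPKM (SD, n = 3) with cytarabine and 96.6 ± 162 FPKM (SD, n = 3) in controls, and a log2 fold change of 3.93 with a standard error of 2.03. Slc26a3 had a mean of 83.6 ± 66.5 FPKM (SD, n = 3) with cytarabine and 15.8 ± 26.8 FPKM (SD, n = 3) in controls, and a log2 fold change of 3.53 with a standard error of 1.76. The log2 fold changes of the 10 genes ran from 2.08 for Cdh17 to 4.16 for Lgals4, with a median of 3.29 against -0.0015 for all genes tested, and their adjusted p from limma ran from 0.335 to 0.386. None of the 10 passed an adjusted p of 0.05, where 0 of 11703 genes did (0%). None of them had an unadjusted p under 0.05 from limma, against 2038 of all genes (17.4%), 890 of them higher with cytarabine (7.6%), and none had groups that do not overlap, against 2781 (23.8%). The difference between the groups was thus within the spread between mice. Its direction goes with the levels of single libraries. High libraries were 2 of 3 with cytarabine and 1 of 3 in controls. The intermediate library, cytarabine 1, also lay above control 2 and control 3 for all 10 genes. The genes were chosen with those levels known.

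**Figure D4:**
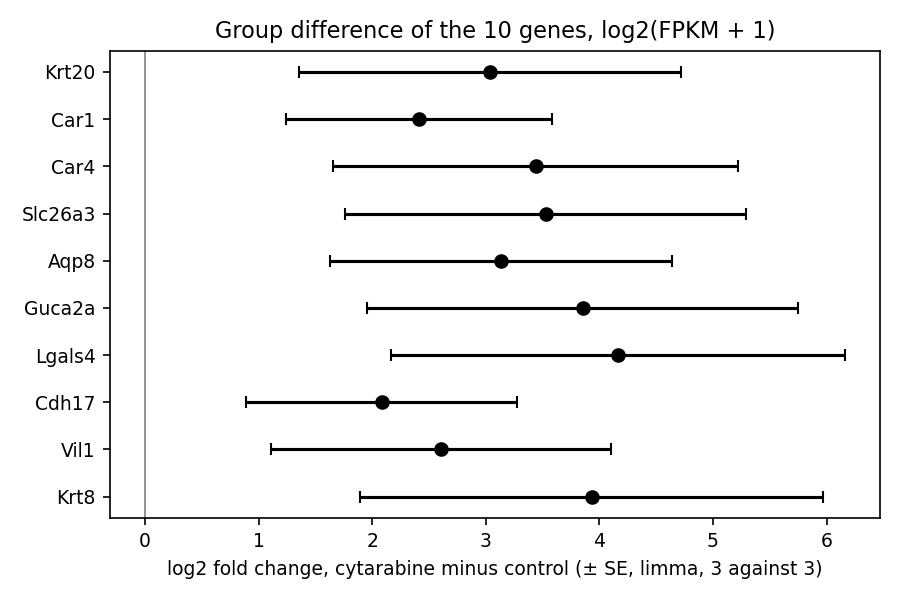
Log2 fold change of each colonocyte gene, cytarabine minus control, on the scale log2(FPKM + 1), with bars for the standard error from limma (3 libraries against 3). The points lie between 2.08 and 4.16, with standard errors of 1.17 to 2.03, and none had an unadjusted p under 0.05.

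Leaving out 1 library at a time changed the size of the difference and not the call. The median log2 fold change of the 10 genes was 4.88 without control 1 and 4.53 without cytarabine 1, and 2.45 to 2.82 without each of the others, and the smallest adjusted p from limma among the 10 genes was 0.113, without cytarabine 1. Other lists were read from the fit of all 6 libraries. Of the 17 further colonocyte genes, 12 brush border genes and 17 junction genes that averaged 1 FPKM or more and so were tested, none had an unadjusted or adjusted p under 0.05 from limma. Of the 8 neutrophil genes, 6 were lower with cytarabine at an unadjusted p under 0.05 and 0 at an adjusted p under 0.05 from limma, against 1148 of all 11703 genes lower at an unadjusted p under 0.05 (9.81%).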

How the data were processed

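Total RNA of sorted cells was made into stranded mRNA libraries and sequenced as 75-base single-end reads. Mapping by the authors was to mm10, using TopHat2 2.0.13, Bowtie2 2.2.3 and SAMtools 0.1.19, and they deposited 1 FPKM value per gene and library from Cufflinks 2.2.1. The gene annotation and the Cufflinks options are not given in the sources used here. Median-of-ratios factors of the deposited FPKM were 1.004 to 1.006, so the libraries were already on a common scale. Effective depth was inferred from 3607 genes with 1 transcript in GENCODE (GRCm38), with a fragment length of 200 bases assumed; 72.1% to 78.4% of low values lay within 0.1 of whole reads.

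The group test was limma (3.58.1, R 4.3.3) on log2(FPKM + 1) of genes averaging 1 FPKM or more, with trend, two-sided, and Benjamini-Hochberg adjustment over all genes. This scale understates changes of low genes. The step was also run on simulated data with errors drawn independently for each gene. The 10 genes vary together, so that run does not bear on them. Python 3.11.15 was used otherwise. Members and lists were chosen with earlier results of these data known. Named were the 10 genes, their receptor, relatives and partners, up to 4 genes of each list by mean FPKM and the 10 nearest profiles; other genes named were chosen after their values were seen. List symbols were matched through RefSeq synonyms (GRCm38.p6), and Muc3, Clca4a, Muc2, Clca1, Sh2d6 and Igha were left out. Alternatives were a pseudocount of 0.1, other filters, other scalings, no trend, the replicate number as a block, and leaving out each library. A factor gene and the sequence search that goes with it are not reported here.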

Additional observations from a re-analysis of the deposited data

How the results depend on the processing

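All 130 values of the 10 colonocyte genes under 13 alternatives kept their direction and stayed above an adjusted p of 0.05 from limma. The other filters, the fit without trend and the replicate block leave the fold change itself as it was, at a median of 3.29. For these settings the direction was fixed beforehand. The number of genes at an adjusted p under 0.05 was 0 (2038 at an unadjusted p under 0.05). It was 1 with a pseudocount of 0.1 and 2 without the trend in eBayes, and 0 to 5 when 1 replicate was left out at a time, with 5 without cytarabine 1. The number at an unadjusted p under 0.05 was 1179 to 4075 in the same leave-one-out fits, the lowest without control 3 and the highest without cytarabine 1. A replicate block brought the count at an unadjusted p under 0.05 to 994, with 0 genes left after adjustment. The same numbers mark different mice, and the residuals of libraries that share a number had correlations of -0.71, -0.25 and -0.59. The cause was not tested. The order of the first 4 libraries held for 8 of 10 genes under both other scalings. The median-of-ratios factors were 1.004 to 1.006, so that scaling could hardly alter the order. The median SD of the log2 ratio between 2 genes was 0.59 to 0.75 when a library was left out. Depth limits the low values of control 2 and 3, where Krt20 and Guca2a rest on 1.11 to 4.45 inferred reads; this covers counting error only.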
